A study of Mus musculus with 9 samples.

Results

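Nucleolar ribosome biogenesis genes encode the proteins that transcribe ribosomal RNA, modify and cut it, and assemble it into the subunits of the ribosome. The set held 48 genes, named by symbol, and it was followed as a read-out of growth capacity beside cell division. A gene entered if a probe set of the array was annotated to its symbol alone, and the probe set with the highest mean stood for it. This gave 41 of the 48 genes, of the 14440 genes with such a probe set. Of these, 40 were bright enough to be tested, of 10646 genes tested in all. Polr1b, Dkc1, Utp18, Ddx52, Nop16 and Noc2l were not analysed here, and Mrto4 was left out because its probe set carried several gene symbols. Rrp9, a protein particular to the U3 small nucleolar ribonucleoprotein, was in the table but under the array floor, the 40th percentile of an array's values, on all 9 arrays.

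The samples were 5 tumours of MYF-5 CRE/SSM2 mice, which model synovial sarcoma, and 4 samples of normal skeletal muscle, 1 array each. In these mice Cre recombinase is driven from Myf5, a gene of muscle precursors, and switches on SYT-SSX, the fusion protein of synovial sarcoma. The titles name tumour 1 CC23, tumour 2 CC17-B, tumour 3 CC17-A, tumour 4 SSM5 and tumour 5 SSM4. Muscles 1 to 4, titled wild type, came from hind limb, intercostal muscle, forelimb and hind limb again. Genotype and tissue therefore differ together in every comparison, and the labels give no age. Tumours 2 and 3 share the number CC17, and the labels do not say whether the samples came from separate animals, so p-values cover only how far these samples spread.

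Values are scaled intensities: the deposited signals multiplied by 0.909 to 1.29, so that the arrays share a 2% trimmed mean. A log2 fold change is the mean of log2(scaled intensity + 16) in tumours minus that in muscle. Calls are at 0.05 on limma's p-values, adjusted over the 10646 genes by the method of Benjamini and Hochberg. Levels are not compared between genes, since probe sets differ in brightness. The ratio of the 3-prime to the 5-prime Actb control probe sets, a sign of RNA quality, was 12.7, 2.90, 1.99, 4.54 and 2.04 in tumours 1 to 5, and 1.62 to 1.93 in muscle. In the tumours, 8 of the 9 tested genes that mark skeletal muscle fibres were called lower, and 8 of the 8 synovial sarcoma markers were called higher. Summed over the 9 fibre markers, the scaled intensity ran from 346 to 110213 in tumours, against 419907 to 558920 in muscle, a wide range among tumours, and in tumour 4 all 9 were under the array floor. Of the markers of other cells, 3 of 6 tested fibroblast genes were called higher and 1 lower, 3 of 7 endothelial genes were called lower, 1 of 2 leukocyte genes was called higher, and 0 of 2 adipocyte genes were called. None of the tested markers is listed at 0 on any array. The part of these cells in the results below was not tested. Fewer cells of a type and less RNA per cell cannot be told apart in such bulk samples.

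Ribosomes are built in the nucleolus. RNA polymerase I copies the ribosomal DNA into a long precursor RNA there, small nucleolar ribonucleoproteins guide the modification of that RNA, and a small subunit processome and a set of large subunit assembly factors fold and cut it. Cells that grow and divide need many new ribosomes, and mature skeletal muscle fibres do not divide but keep a large protein mass.

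Start regions are shown for 5 of the genes on which the results below turn: 3 called members with the same short motif, a called member with another motif, and the member whose level was lower on every tumour array than on any muscle array. RefSeq, in its GRCm38.p6 table, held promoters for 42 of the 48 genes, each running from 250 bases before the gene's start to 50 bases after it. Capitals mark a match to CCGGAAG, read on either strand, or to CACGTG, which reads the same on both strands. The regions, 5′ to 3′ along the gene, are Polr1c at chr17:46247996-46248295 on the minus strand, Nhp2 at chr11:51619523-51619822 on the plus strand, Gar1 at chr3:129831347-129831646 on the minus strand, Utp20 at chr10:88826765-88827064 on the minus strand and Nop10 at chr2:112261676-112261975 on the plus strand.
Polr1c: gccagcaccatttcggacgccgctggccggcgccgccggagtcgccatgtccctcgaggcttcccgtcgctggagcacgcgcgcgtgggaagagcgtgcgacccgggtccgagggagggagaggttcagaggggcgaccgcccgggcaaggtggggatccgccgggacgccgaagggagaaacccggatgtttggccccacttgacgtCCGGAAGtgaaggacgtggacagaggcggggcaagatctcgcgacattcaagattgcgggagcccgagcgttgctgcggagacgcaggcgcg
Nhp2: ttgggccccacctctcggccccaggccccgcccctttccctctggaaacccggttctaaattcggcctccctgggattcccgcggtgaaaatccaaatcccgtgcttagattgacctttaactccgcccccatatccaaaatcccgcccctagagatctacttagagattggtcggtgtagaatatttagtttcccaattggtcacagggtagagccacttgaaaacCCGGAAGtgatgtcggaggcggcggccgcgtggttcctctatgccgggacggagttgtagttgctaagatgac
Gar1: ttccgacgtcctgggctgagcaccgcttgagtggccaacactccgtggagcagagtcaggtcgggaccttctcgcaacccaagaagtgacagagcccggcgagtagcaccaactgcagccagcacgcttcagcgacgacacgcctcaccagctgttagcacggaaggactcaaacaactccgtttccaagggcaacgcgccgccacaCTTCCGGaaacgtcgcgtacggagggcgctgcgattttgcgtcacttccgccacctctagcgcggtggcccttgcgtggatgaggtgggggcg
Utp20: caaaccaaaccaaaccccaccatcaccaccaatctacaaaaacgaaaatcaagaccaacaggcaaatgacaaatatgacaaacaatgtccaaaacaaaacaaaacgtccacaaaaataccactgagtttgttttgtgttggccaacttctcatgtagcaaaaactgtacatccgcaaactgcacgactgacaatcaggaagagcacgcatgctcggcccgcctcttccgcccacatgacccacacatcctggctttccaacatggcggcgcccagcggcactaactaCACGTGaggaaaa
Nop10: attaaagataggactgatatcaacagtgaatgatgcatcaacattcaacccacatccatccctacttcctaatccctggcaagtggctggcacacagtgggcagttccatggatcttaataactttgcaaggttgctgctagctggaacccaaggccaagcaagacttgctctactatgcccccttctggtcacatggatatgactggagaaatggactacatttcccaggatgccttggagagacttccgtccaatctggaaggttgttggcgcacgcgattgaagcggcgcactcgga
The CCGGAAG match began 42 bases before the start in Polr1c, 23 bases before it in Nhp2 and, as CTTCCGG, 43 bases before it in Gar1. The CACGTG match in Utp20 began at base 38, counted from 1 at the start. The Nop10 window held neither set of letters.

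CCGGAAG and CACGTG were found at a larger share of the nucleolar genes than of genes in general. A gene counted if any of its promoters held the letters, and the 42 include members that were not tested on the arrays. CCGGAAG or its reverse complement CTTCCGG, the core letters of sites for ETS family factors, lay in a promoter of 16 of the 42 genes (38.1%). The share was 18.8% of 8569 tested genes and 9.93% of all 27025 genes with a promoter. CACGTG, the letters of the E-box known from MYC and related factors, lay in 10 of the 42 (23.8%), against 11.7% of tested genes and 8.09% of all genes. TATAAA or TTTATA, the letters of a TATA box, lay in 2 of the 42 (4.76%), against 9.49% of tested genes and 15.7% of all genes. CCGGAAG and CTTCCGG can share letters, and a gene with both was counted once. The median GC content was 57.7% in the nucleolar promoters and 52.7% in all promoters, so base composition moves with the motif counts and its part in them was not tested. Of the 11 called members with a promoter, 7 held CCGGAAG and 2 held CACGTG. Of the 23 tested but uncalled members with a promoter, 7 held each of them. A match is a description of the letters in these windows.

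In the tumours, 13 of the 40 tested nucleolar genes were called higher (32.5%) and 0 were called lower, while 27 were not called. By limma's unadjusted p under 0.05, 13 were higher and 1, Wdr12, was lower, against 34.5% and 20.6% of all genes. Over all genes tested, the share called higher was 30.1% and the share called lower was 18%, with 48.1% called in either direction. The share of nucleolar genes called higher was therefore close to the share among all genes. The number called lower, 0 as reported, ran from 0 to 4 of the 40 over 6 scalings of the arrays, against 13.2% to 23.8% of all genes. Without a threshold, 31 of the 40 had a positive log2 fold change and 9 a negative one. The median log2 fold change was 0.47 for the nucleolar genes and 0.23 for all genes tested. Only 4 of the 40 were called at least 2-fold higher, Polr1c, Nop56, Fbl and Gar1, against 22.1% of all genes. In 8 of the 40, each tumour lay above each muscle sample, against 25.3% of all genes, and in 1 of the 40, Nop10, each tumour lay below each muscle sample, against 15.2%.

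**Figure D1:**
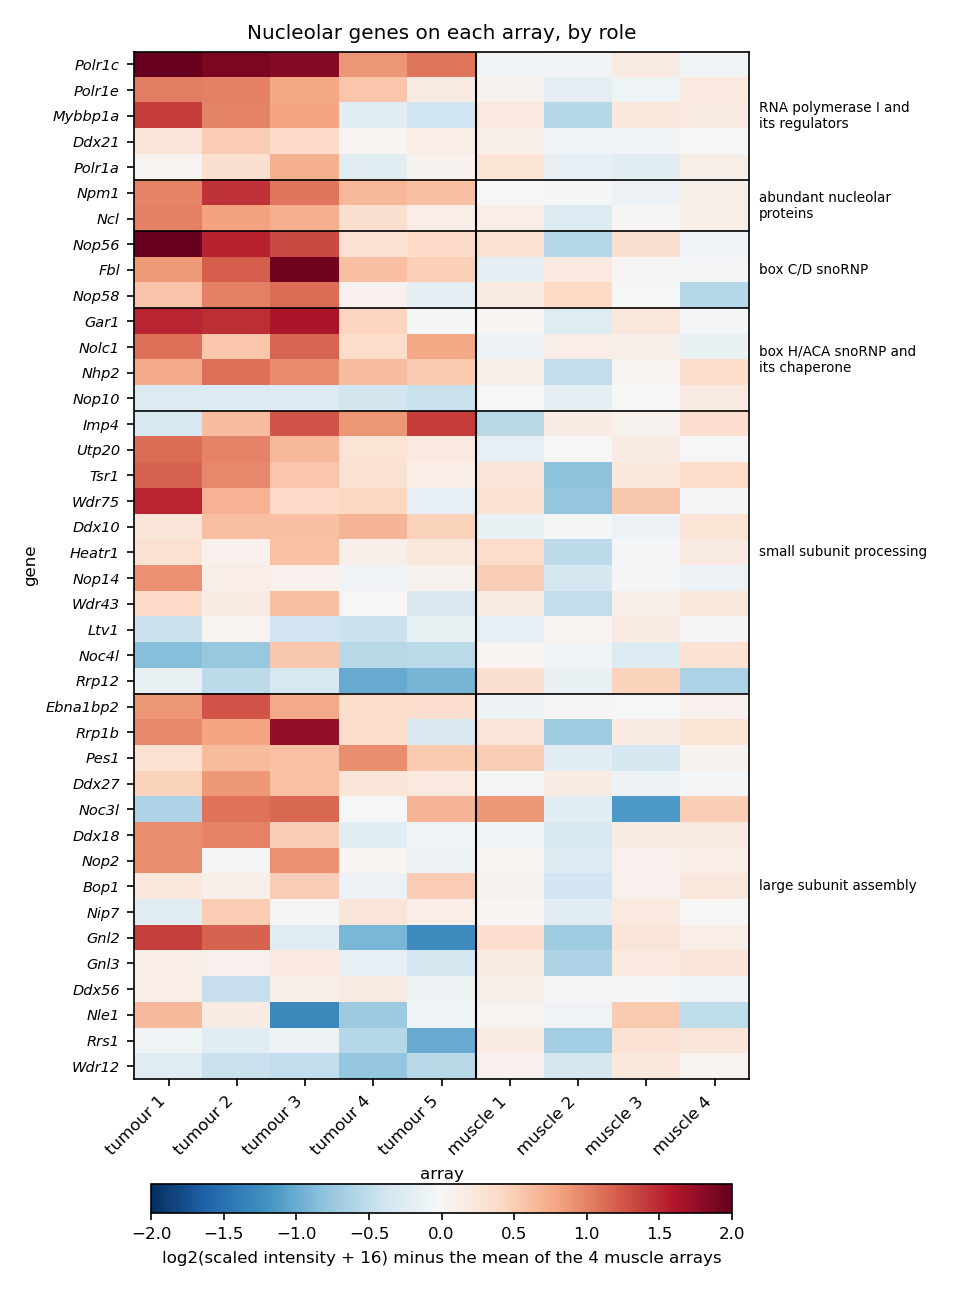
Each row is a tested nucleolar gene and each column an array, with tumours left of muscle; colour gives log2(scaled intensity + 16) minus the mean of the 4 muscle arrays, limited to 2 in either direction. The genes are grouped by role and ordered by change, and tumours 1 to 3 are redder than tumours 4 and 5 in most rows, as for Nop56, Gar1 and Mybbp1a.

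RNA polymerase I and its regulators held the largest change of the set. Polr1c, a subunit that RNA polymerases I and III share, had 4215, 3270, 3138, 1621 and 1852 in tumours 1 to 5, against 827, 837, 996 and 842 in muscles 1 to 4. The lowest tumour lay well above the highest muscle sample. Polr1c averaged 2819 ± 1075 in tumours (SD, n = 5) and 875 ± 80.7 in muscle (SD, n = 4), a log2 fold change of 1.58 (SE 0.28, limma adjusted p = 0.000826). A further Polr1c probe set gave 1.07. Polr1e, the polymerase I subunit also called PAF53, had 560, 550, 467, 398 and 300 in tumours, against 282, 231, 251 and 309 in muscle. Tumour 5 lay among the muscle samples, and the other tumours lay above them. Its log2 fold change was 0.70 (SE 0.23, limma adjusted p = 0.0276), a call kept in 5 of the 9 fits that left out 1 array and under 2 of 6 scalings.

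The other members of this role were not called. Polr1a, the largest subunit of polymerase I, averaged 507 ± 131 in tumours and 436 ± 74.6 in muscle, with a log2 fold change of 0.19 (95% interval -0.31 to 0.69). Mybbp1a, a nucleolar MYB-binding protein that regulates ribosomal DNA transcription, had 4125, 3155, 2747, 1340 and 1187 in tumours, against 1797, 1058, 1819 and 1781 in muscle. Tumours 1 to 3 lay above every muscle sample and tumours 4 and 5 among them, and the log2 fold change of 0.51 was not called (limma adjusted p = 0.284). Ddx21, an RNA helicase that links transcription of the precursor to its processing, was at 882 to 1233 in tumours and 823 to 927 in muscle, with a log2 fold change of 0.26 (95% interval -0.12 to 0.64).

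Both abundant nucleolar proteins were called higher. Npm1, nucleophosmin, a histone and ribosome chaperone that also shapes the nucleolus, had 15538, 21248, 16377, 12347 and 11831 in tumours, against 7892, 7695, 7192 and 8505 in muscle. Again no tumour overlapped the muscle samples. Npm1 averaged 15468 ± 3782 in tumours (SD, n = 5) and 7821 ± 543 in muscle (SD, n = 4), a log2 fold change of 0.95 (SE 0.21, limma adjusted p = 0.00325). Ncl, nucleolin, which binds the precursor RNA, had 10084, 8784, 8292, 6266 and 5508 in tumours, against 5517, 4140, 5089 and 5464 in muscle. Tumour 5 lay at the level of the highest muscle samples. For Ncl the log2 fold change was 0.60 (SE 0.22, limma adjusted p = 0.0416), and this call was kept in 2 of the 9 fits that left out 1 array.

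The box C/D proteins, which guide 2′-O-methylation of ribosomal RNA, gave 2 calls among 3 tested. Fbl, fibrillarin, the methyltransferase of the particle, had 1788, 2293, 3812, 1498 and 1384 in tumours, against 861, 1126, 1002 and 970 in muscle. Every tumour lay above every muscle sample, and tumour 3 was the highest. For Fbl the log2 fold change was 1.01 (SE 0.28, limma adjusted p = 0.0121), and a further Fbl probe set gave 1.71. Nop56, a core protein of the particle, had 4158, 2659, 2292, 1123 and 1184 in tumours, against 1124, 603, 1133 and 877 in muscle. Tumours 4 and 5 were at the level of the 2 highest muscle samples, while tumours 1 to 3 were far above. On the log2 scale the change was 1.14 (SE 0.38, limma adjusted p = 0.0284), while its other probe set gave 0.51 and was not called. The Nop56 call was kept in 5 of the 9 fits without 1 array.

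Nop58, the partner of Nop56 in the same particle, had 463, 629, 684, 326 and 265 in tumours, against 343, 409, 305 and 201 in muscle. Tumours 1 to 3 were again above tumours 4 and 5, at a log2 fold change of 0.52, which was not called (limma adjusted p = 0.201). Rrp9 was at 21.5 to 88.5 in tumours and 37.6 to 82.6 in muscle, under floors of 96.5 to 137, so its direction cannot be read from these arrays.

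The box H/ACA proteins, which convert uridines of ribosomal RNA to pseudouridine, split. Of the 4 members tested here, Gar1, Nhp2 and the chaperone Nolc1 were called higher, and Nop10 was not called and lay lower. Gar1 had 2347, 2271, 2545, 1091 and 791 in tumours, against 824, 683, 945 and 794 in muscle. Tumour 5 lay among the muscle samples, and the log2 fold change of 1.01 (SE 0.34, limma adjusted p = 0.0316) rested mainly on tumours 1 to 3, since with the 2 tumours titled SSM alone it was 0.20. Its call was kept in 3 of the 9 fits without 1 array. Nhp2 had 3454, 4403, 3923, 3116 and 2921 in tumours, against 2209, 1434, 2083 and 2593 in muscle. All tumours lay above all muscle samples, at a log2 fold change of 0.79 (SE 0.21, limma adjusted p = 0.0109), while its other probe set gave 0.31.

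Nop10, the smallest protein of the H/ACA core, had 11682, 11676, 11757, 10971 and 10389 in tumours, against 14182, 12298, 14121 and 16011 in muscle. The tumours were nearly level with one another and all below the muscle samples. For Nop10 the log2 fold change was -0.32 (95% interval -0.69 to 0.05, limma adjusted p = 0.136), with -0.58 on a further probe set, but quantile normalization turned it to 0.41. Nolc1, also called Nopp140, which helps the particles mature, had 667, 451, 698, 393 and 524 in tumours, against 281, 333, 323 and 272 in muscle. The groups did not overlap and the log2 fold change was 0.80 (SE 0.22, limma adjusted p = 0.0121). The call depends on the probe set: the other Nolc1 probe sets gave -0.61 and -0.26, and their average with the brightest gave -0.027.

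Small subunit processing factors, which form the processome on the 5′ part of the precursor and carry the small subunit to the cytoplasm, gave 2 calls among 11 tested. Their median log2 fold change was 0.26, near the median of all genes. Utp20, a large scaffold of the processome, had 996, 916, 729, 552 and 519 in tumours, against 402, 456, 509 and 448 in muscle. The groups did not overlap, but tumour 5 was close to the highest muscle sample. The log2 fold change was 0.65 (SE 0.23, limma adjusted p = 0.0386), and 2 of the 9 fits without 1 array kept the call. Ddx10, an RNA helicase of the processome, had 702, 904, 910, 962 and 827 in tumours, against 537, 581, 548 and 724 in muscle. Tumour 1 lay just under the highest muscle sample. Ddx10's change on the log2 scale was 0.52 (SE 0.18, limma adjusted p = 0.0356), kept in 2 of those 9 fits.

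The remaining 9 members of this role were not called. Imp4, a U3-associated processome protein, had 155, 311, 498, 378 and 544 in tumours, against 130, 222, 209 and 253 in muscle, with tumour 1 apart from the other tumours. Its log2 fold change was 0.76 (limma adjusted p = 0.0984), and 1.04 with a call once tumour 1 was left out. Tsr1, a GTPase-like factor of late small subunit assembly, was at 1640 to 3391 in tumours and 835 to 1931 in muscle (log2 fold change 0.63), while a second Tsr1 probe set gave -0.40. The processome proteins Wdr75, Heatr1, Nop14 and Wdr43 had log2 fold changes of 0.57, 0.26, 0.23 and 0.17. For Wdr43 a dimmer probe set gave 0.82, which was called when all probe sets were tested (adjusted p = 0.013).

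The lowest values of this role were those of 3 members. Rrp12, which takes part in export of both subunits, had 278, 211, 245, 147 and 156 in tumours, against 394, 282, 433 and 194 in muscle, at a log2 fold change of -0.59 (limma adjusted p = 0.123). Tumours 4 and 5 lay below every muscle sample. Noc4l, a partner of Nop14, had 355, 381, 956, 438 and 446 in tumours, against 672, 629, 538 and 798 in muscle. Tumour 3 lay above all muscle samples and the other tumours below them all, at a log2 fold change of -0.43 (limma adjusted p = 0.238). The other 3 Noc4l probe sets gave positive values, 0.19 to 0.33. Ltv1, a late small subunit factor, had a log2 fold change of -0.26 (95% interval -0.66 to 0.13).

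Large subunit assembly factors gave 2 calls among 15 tested, with a median log2 fold change of 0.24. Ebna1bp2, the nucleolar protein whose yeast relative is Ebp2, had 1604, 2087, 1461, 1109 and 1086 in tumours, against 804, 875, 853 and 920 in muscle. The groups did not overlap, and the log2 fold change was 0.72 (SE 0.22, limma adjusted p = 0.0186). Pes1, Bop1 and Wdr12 form a single complex, PeBoW, which is needed to mature the large subunit RNAs, and their values went different ways. Pes1 had 578, 731, 705, 896 and 671 in tumours, against 658, 396, 361 and 489 in muscle. The log2 fold change was 0.60 (SE 0.22, limma adjusted p = 0.0451). Tumour 1 lay under the highest muscle sample. The Pes1 call was kept in 2 of the 9 fits without 1 array.

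Bop1, the second subunit of PeBoW, had 606, 561, 746, 482 and 752 in tumours, against 552, 400, 555 and 614 in muscle, and the groups overlapped (log2 fold change 0.24, 95% interval -0.23 to 0.70). Wdr12, the remaining subunit, had 642, 559, 537, 440 and 513 in tumours, against 814, 594, 885 and 797 in muscle. All tumours but tumour 1 lay below all muscle samples. The log2 fold change of Wdr12 was -0.50 (95% interval -0.93 to -0.08), which narrowly missed the call (limma adjusted p = 0.0511), and a dimmer probe set gave -0.02. The difference between subunits was not tested, and these are transcript levels on separate probe sets.

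The other members of the large subunit role were not called. Gnl2, a nucleolar GTPase of pre-60S particles, was the most uneven of the 40 genes among tumours, with 3490, 3069, 1141, 709 and 552 against 1706, 813, 1583 and 1479 in muscle. Tumours 1 and 2 lay above every muscle sample and tumours 4 and 5 below them all, a 6.32-fold range among tumours, so the log2 fold change of 0.03 (SE 0.53) describes no tumour. Gnl3, nucleostemin, a related GTPase known from stem cells and tumours, had 2215, 2153, 2306, 1790 and 1587 in tumours, against 2274, 1308, 2321 and 2398 in muscle. Here the groups overlapped fully, at a log2 fold change of -0.02 (95% interval -0.51 to 0.47).

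Rrp1b, a nucleolar protein of large subunit assembly, had 653, 576, 1148, 422 and 265 in tumours, against 398, 195, 369 and 402 in muscle, at a log2 fold change of 0.71 (limma adjusted p = 0.149). Tumour 5 lay among the muscle samples. The RNA helicases Ddx27, Ddx18 and Ddx56 had log2 fold changes of 0.47, 0.42 and -0.03. On the same scale Noc3l was at 0.46, Nop2, a cytosine methyltransferase of the large subunit RNA, at 0.35 and Nip7 at 0.14. Nle1 was at -0.26. Rrs1, which brings the 5S particle to the large subunit, had 2005, 1762, 1927, 1387 and 1026 in tumours, against 2302, 1292, 2528 and 2466 in muscle, at a log2 fold change of -0.39 (limma adjusted p = 0.249). Its dimmer probe set gave -0.82, which was called when all probe sets were tested (adjusted p = 0.0236).

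**Figure D2:**
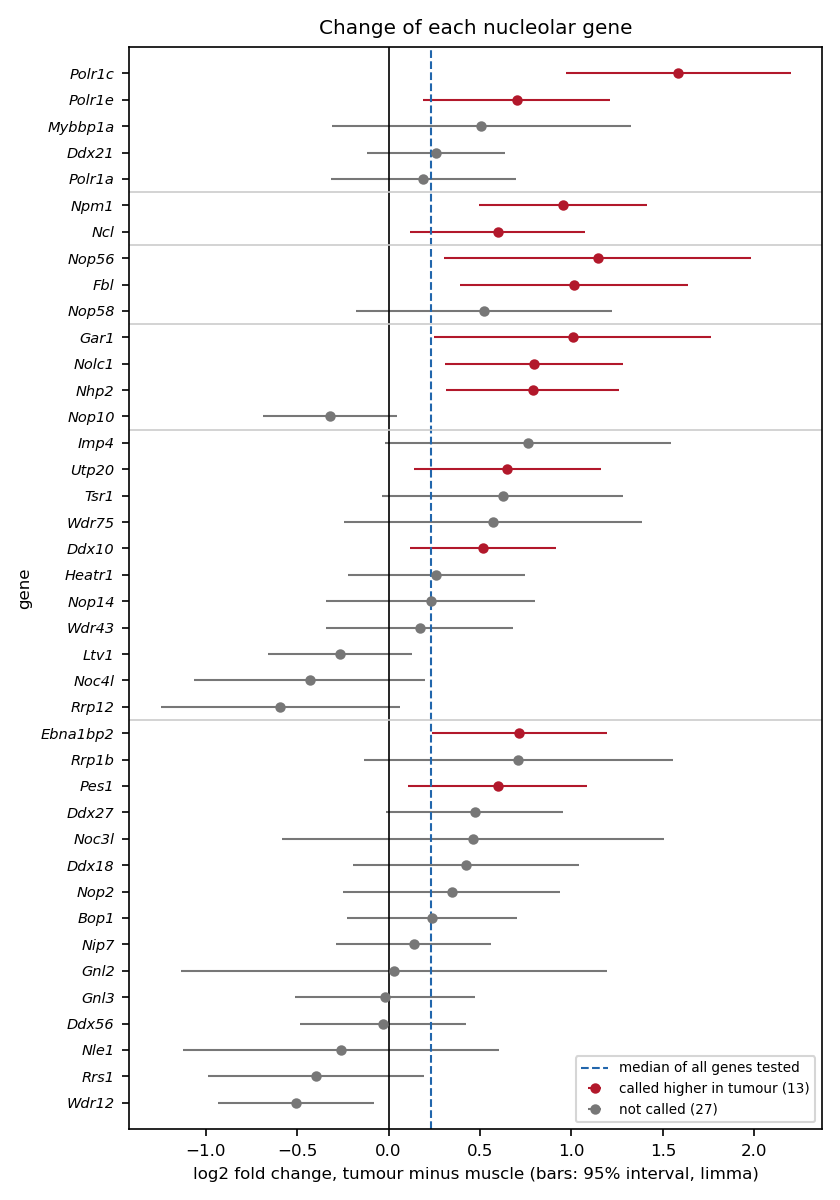
Points give the log2 fold change of each tested nucleolar gene, tumour minus muscle, with the 95% interval from limma; red points are the 13 called genes and the dashed line is the median of all genes tested, 0.23. Polr1c stands highest at 1.58, the first 4 role blocks hold 9 of the 13 calls, and the interval of most other genes crosses 0.

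By role, the calls can be set beside the 30.1% of all genes called higher. In polymerase I, the abundant proteins and the small nucleolar ribonucleoproteins, 2 of 5, 2 of 2, 2 of 3 and 3 of 4 tested members were called higher, with medians of 0.51, 0.77, 1.01 and 0.79 on the log2 scale. In the small and large subunit groups, 2 of 11 and 2 of 15 were called, with medians of 0.26 and 0.24, close to the 0.23 of all genes. No test compared the roles, and the groups are small.

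More than 1 probe set was available for 25 of the 41 genes, 74 probe sets in all. Those of Polr1c, Fbl, Polr1e, Ddx10, Pes1, Ncl, Ddx18, Ebna1bp2, Nhp2, Nop56 and Wdr43 gave only positive values. Nop10, Rrs1 and Wdr12 gave only negative ones. Both directions were seen for Nolc1, Noc4l, Tsr1, Gnl2, Mybbp1a, Ddx27, Nip7, Ddx21, Heatr1, Rrp1b and Polr1a. The negative value of Heatr1, -0.09, came from a probe set that reached the array floor on 0 arrays. A wider list of 126 further ribosome biogenesis genes, 94 of them tested, was read in the same way. It gave 21 genes called higher (22.3%) and 6 called lower (6.38%), against 30.1% and 18% of all genes. The other 67 were not called, and the median log2 fold change was 0.24. Among the calls named by fitted change were Shq1, an assembly factor of H/ACA particles, at least 1.45-fold higher (limma adjusted p = 0.00338), Spout1 with a log2 fold change of 1.72 (limma adjusted p = 0.00728), Pno1 with -1.65 (limma adjusted p = 0.00402) and Ppan with 1.38 (limma adjusted p = 0.00834). Shq1 was under the array floor in all muscle samples, which is why its change is a bound and has no rank. Pno1, which acts in small subunit assembly, averaged 912 in tumours and 2604 in muscle, and Ppan, the relative of yeast Ssf1, acts in the large subunit. Within the list, 9 assembly factors of small nucleolar ribonucleoproteins were named, of which 4 were tested and 3 called higher. The exosome and RNase MRP subunits, which trim and cut the precursor, gave 4 higher and 4 lower among 16 tested. That is 25% in each direction, against 30.1% and 18% of all genes.

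In the wider list, 9 of 15 named genes of RNA polymerase I transcription were tested. Of these, 2 were called higher (22.2%) and 0 lower, against 30.1% and 18% of all genes. There were 7 positive values and a median log2 fold change of 0.47. Ubtf, which binds the ribosomal DNA promoter, had 1420, 912, 2566, 1699 and 1556 in tumours, against 642, 1085, 879 and 637 in muscle, at a log2 fold change of 0.95 (SE 0.29, limma adjusted p = 0.0186). Tumour 2 lay among the muscle samples. Rrn3, also called TIF-IA, which recruits the polymerase, had 695, 794, 836, 534 and 566 in tumours, against 1024, 668, 1120 and 1247 in muscle, at a log2 fold change of -0.54 (limma adjusted p = 0.0755). Myc, a known activator of nucleolar genes, had 100, 263, 1003, 281 and 185 in tumours, against 139, 174, 300 and 262 in muscle. The value of tumour 1 was under its array floor of 137. Only tumour 3 lay above the muscle samples, and the log2 fold change of 0.35 was not called (limma adjusted p = 0.608). Mycn was not analysed here.

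Cell division genes moved far more than the nucleolar ones. Of 60 tested genes of DNA replication and mitosis, 55 were called higher (91.7%) and 0 lower, with a median log2 fold change of 2.52, or 2.34 with the 8 genes under the floor in all muscle samples at their bounds. Mki67, the proliferation marker, had 7037, 5441, 3873, 3082 and 2254 in tumours, against 101, 172, 873 and 104 in muscle, at a log2 fold change of 4.19 (SE 0.57, limma adjusted p = 0.000156). The forelimb sample, muscle 3, stood above the other muscle samples, and muscle 1 lay just under its array floor of 103. Cdk1, the kinase that drives mitosis, had a log2 fold change of 4.31 (limma adjusted p = 0.000143), but reached the array floor in only 2 of the 4 muscle samples. The spindle checkpoint kinases Bub1b and Bub1 were at least 5.30-fold and at least 5.34-fold higher. In muscles 1 to 4, 28, 25, 13 and 23 of the 60 genes were under the floor, so the size of their changes is imprecise. For the 40 nucleolar genes these counts were 0, 1, 1 and 0. Only 4 of the 40 nucleolar genes were called at least 2-fold higher, against 53 of the 60 cell division genes.

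Ribosomal proteins are the products with which nucleolar factors work. Of 81 such genes listed, 35 had a single-symbol probe set and 34 were tested, so the list covers only part of them. Among the 34, 3 were called higher and 0 lower, against 30.1% and 18% of all genes, at a median log2 fold change of -0.0049. At limma's unadjusted p under 0.05, 4 were higher and 1 lower, against 34.5% and 20.6% of all genes. The median of this list moved with the scaling, to 0.59 after quantile normalization, 0.49 above that of all genes, and to -0.27 at the 75th percentile. The 3 were Rpl14 (log2 fold change 1.38, limma adjusted p = 0.00201), Rps25 (1.36, limma adjusted p = 0.00461) and Rpl12 (0.84, limma adjusted p = 0.0164). Each of the remaining 31 was uncalled. Many ribosomal protein genes have near-identical processed copies in the genome, so their probe sets may read several loci.

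**Figure D3:**
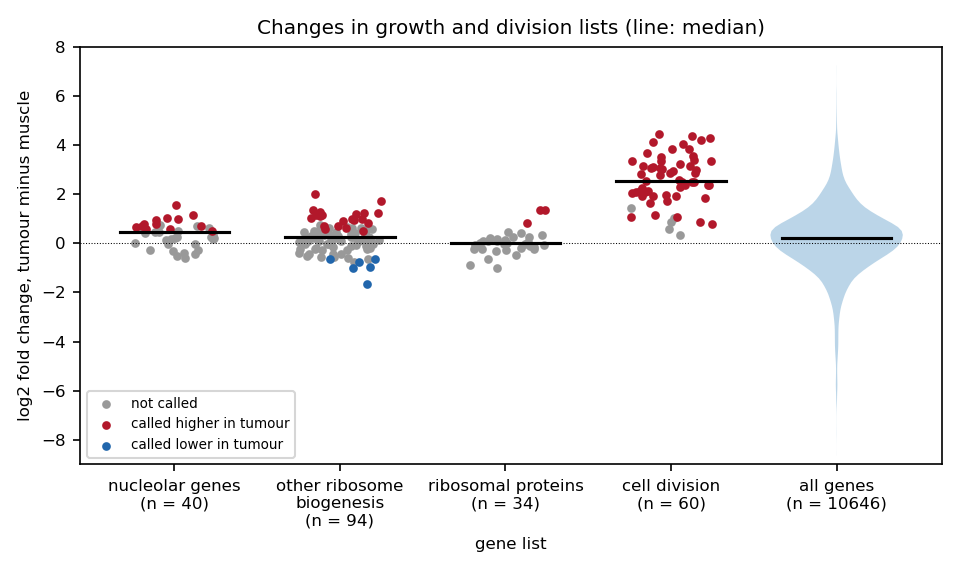
Each point is a tested gene, placed by its log2 fold change, tumour minus muscle; black lines are medians and the violin shows all 10646 genes. The medians are 0.47 for nucleolar genes, 0.24 for other ribosome biogenesis genes, -0.0049 for ribosomal proteins, 2.52 for cell division genes and 0.23 for all genes.

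The nucleolar genes varied among the tumours. The mean log2 level of the 40 genes, taken relative to the muscle mean, was 0.58, 0.58, 0.59, 0.09 and 0.06 in tumours 1 to 5, and 0.11, -0.24, 0.06 and 0.07 in muscles 1 to 4. As scaled, tumours 4 and 5 were thus within the range of the muscle samples, and tumours 1 to 3 above it. The scaling had multiplied tumours 1 and 3 by 1.29 and 1.24, and tumours 2, 4 and 5 by 0.951, 0.909 and 0.925. These scores were not computed under other scalings, so the order holds for the reported scaling only. Taken as medians, the 40 genes were at 0.61, 0.62, 0.60, 0.14 and 0.10 in tumours 1 to 5. All genes tested were at 0.19, 0.17, 0.36, 0.26 and 0.22, so tumours 4 and 5 lay below the shift of all genes and tumours 1 to 3 above it. The fibroblast marker score ran the other way, at 0.58, 0.62, 0.21, 1.97 and 1.51 in tumours 1 to 5, and the leukocyte score was -0.39, 1.06, 0.53, 1.39 and 1.71. Their part in the nucleolar score was not tested. Tumour 4, with its fibre markers under the floor, and tumour 5, with a summed fibre marker intensity of 110213, had nearly the same nucleolar score. The same score for the cell division genes was 2.68, 2.93, 3.14, 2.14 and 1.91 in tumours, and -0.26, -0.16, 0.57 and -0.15 in muscle, so every tumour was well above every muscle sample. For ribosomal proteins it was 0.56, 0.28, 0.05, -0.30 and -0.40 in tumours, and 0.06, -0.23, -0.0040 and 0.17 in muscle. Which array was lowest was counted for the nucleolar genes only, with no share over all genes to set beside it. Tumour 5 was the lowest tumour for 20 of the 40 nucleolar genes and tumour 4 for 11. Among muscle samples the intercostal muscle 2 was the lowest for 22 of the 40. That sample also had the highest summed adipocyte markers of the muscle samples, 108036 against 27997 to 34324, and the highest summed fibroblast markers, 53139 against 35727 to 46902, whose part was not tested.

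**Figure D4:**
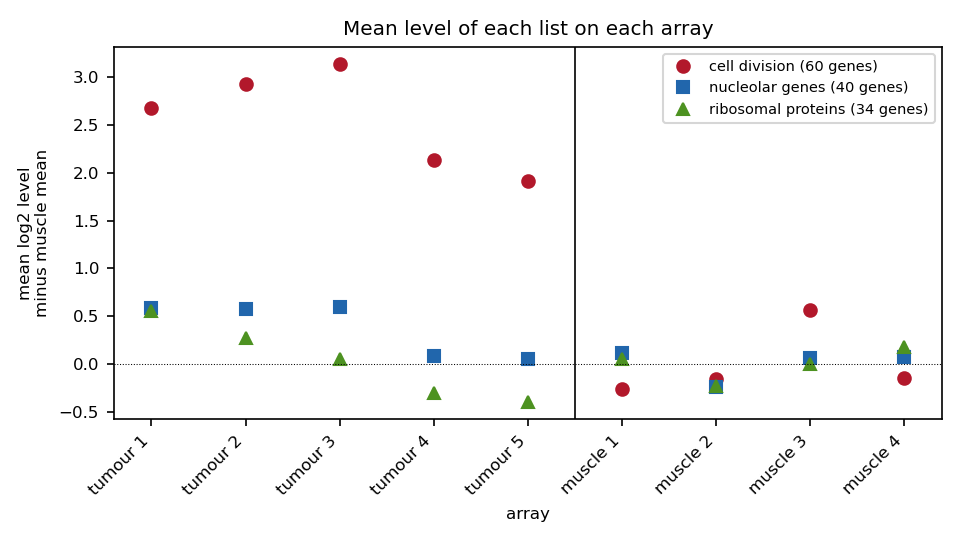
For each array the points give the mean log2 level of a list minus its mean in the 4 muscle arrays, with tumours on the left. Cell division scores of tumours run from 1.91 to 3.14, while nucleolar scores are near 0.58 in tumours 1 to 3 and at 0.09 and 0.06 in tumours 4 and 5. All scores are those of the reported scaling.

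All 3 tumours titled CC lay above both tumours titled SSM for 25 of the 40 nucleolar genes, against 20% of all genes. The CC tumours lay below both for 0 of the 40, against 22.2% of all genes. The median log2 difference, CC minus SSM, was 0.48 for the nucleolar genes and -0.03 for all genes, and limma with 3 against 2 tumours called 0 of the 40, while it called 0.77% of all genes higher and 0.592% lower. At an unadjusted p under 0.05 stood 12 of the 40, against 20.2% of all genes. The largest differences, none of them called, were in Gnl2 (1.85), Mybbp1a (1.37), Gar1 (1.34) and Nop56 (1.34). With the arrays scaled in 6 ways, the number of nucleolar genes with CC above SSM ran from 10 to 26. The share of all genes with that order moved too, from 9.32% to 21%. The number of nucleolar genes with CC below SSM ran from 0 to 4, and its share over all genes was not counted under each scaling. The median difference of the nucleolar genes ran from 0.11 to 0.51 over the scalings, and was 0.16 with the values as deposited. The median difference over that of all genes kept between 0.51 and 0.53. Set against muscle, the CC tumours alone gave 16 nucleolar genes called higher and 0 lower, against 27.2% and 19.5% of all genes. The SSM tumours alone gave 5 higher and 3 lower, against 29.5% and 21.3% of all genes, the 3 being Gnl2 (-1.08), Rrp12 (-0.97) and Wdr12 (-0.67). Markers of other cells followed the titles too. Summed over the 6 tested fibroblast markers, the scaled intensity was 27649 to 38143 in the CC tumours and 66971 to 102245 in the SSM tumours, and over the 2 tested leukocyte markers it was 787 to 1875 in the CC tumours and 2383 to 3035 in the SSM tumours. The summed fibre, endothelial and adipocyte markers and the Actb ratio differed between tumours with the titles overlapping. The part of these cells and of RNA quality in the differences was not tested.

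The number of calls moved with the scaling of the arrays more than with any other choice. With the values as deposited 6 of the 40 genes were called higher, with arrays centred on their median 4, after quantile normalization 5, at the 75th percentile 3, and after scaling to ribosomal protein and proteasome transcripts 17, against 13 as reported. Of all genes, 23.3%, 22.5%, 24.9%, 22% and 34.6% were called higher in that order, and 30.1% as reported. Calls lower numbered 1, 2, 2, 4 and 0 in the same order, against 18.7%, 20.8%, 20.3%, 23.8% and 13.2% of all genes. The proteasome genes used in the last of these scalings were themselves lower in tumours. As reported, 14 of 28 tested were called lower and 0 higher, against 18% and 30.1% of all genes, at a median log2 fold change of -0.63. With that scaling the median of all genes was 0.43. The scalings shifted the median of all genes between -0.02 and 0.43. The nucleolar median stayed 0.17 to 0.24 above it in each, against 2.28 to 2.32 for the cell division genes. Single arrays moved that excess more, to 0.076 without muscle 2, 0.083 without tumour 1 and 0.31 without tumour 5, and it was 0.086 with the Actb ratio as a covariate. With array weights in the fit the nucleolar median was level with that of all genes, 0.21 against 0.22, and with the SSM tumours alone it was 0.15 against 0.17. Polr1c, Npm1 and Fbl were called higher under all 6 scalings, in every fit without 1 array and under every other alternative that could be run for them. Leaving out muscle 2, in which Gnl3, Mybbp1a and Rrp1b were low, left 6 calls higher and 1 lower, against 29.1% and 17.4% of all genes. Leaving out tumour 2 left 6 higher and 0 lower, against 28.2% and 16.8% of all genes.

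**Figure D5:**
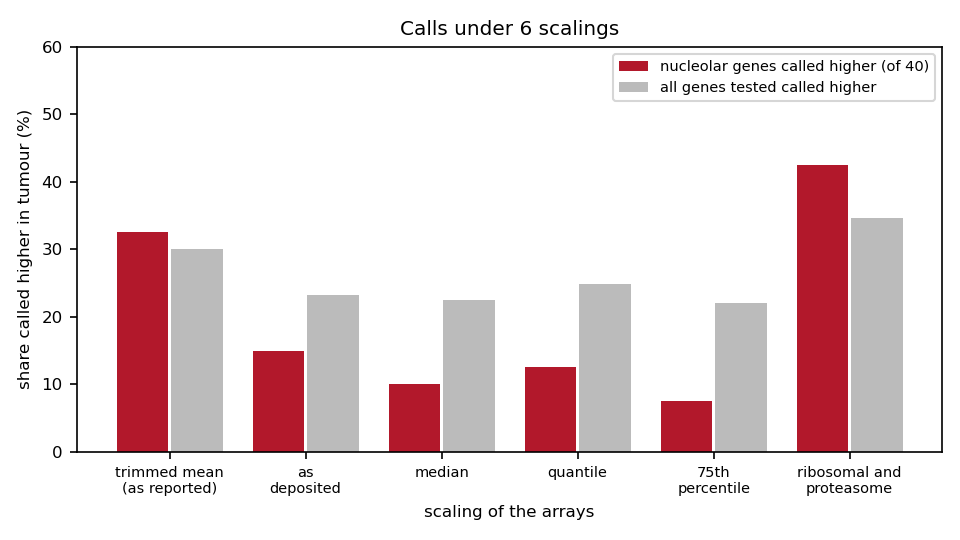
Bars give the percentage called higher in tumour under each of 6 scalings, with the nucleolar genes in red and all genes tested in grey. The nucleolar share is 32.5% against 30.1% as reported, falls below the share of all genes under 4 other scalings and exceeds it after scaling to ribosomal protein and proteasome transcripts. The proteasome genes used there were lower in tumours, at a median log2 fold change of -0.63 as reported.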

How the data were processed

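Total RNA from 5 tumours and 4 muscle samples was hybridised to Affymetrix expression arrays, 1 per sample. The authors deposited MAS5 signals, 1 linear intensity per probe set, per the submitters' processing notes; the version and scaling target are not given in the sources used here. The table held 30508 probe sets, of which 7 controls, 496 annotated to more than 1 gene and 4424 without a symbol were left out. Each of the 14440 genes was represented by its brightest single-symbol probe set. Because the trimmed means of the arrays differed by more than 10%, arrays were scaled to a common 2% trimmed mean. A gene was tested if at least 4 arrays reached the 40th percentile of their values. Differences were tested on log2(scaled value + 16) with limma 3.58.1 in R 4.3.3, using lmFit and eBayes (trend by intensity), as two-sided tests adjusted over all genes tested by Benjamini and Hochberg's method. The fit was tested on simulated data in which 200 genes were changed, with independent noise and no shift shared by the genes of an array. That test therefore says nothing about how the calls depend on scaling. For a gene under the floor on every muscle array, the fold is a bound, the tumour mean against that floor, written as "at least".

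The members and gene lists were chosen with earlier results of these data known, and the named genes are all members, Myc, Mycn, Ubtf, Rrn3 and Mki67, and up to 4 called genes of each further list with the largest change. Alternatives were other scalings, pseudocounts, filters, probe set choices, fits and sets of arrays, each with the reported probe sets unless it concerned that choice. Chosen after seeing the data were leaving out tumours 1 and 4, the Actb ratio as a covariate, the tumours of each title alone, the comparison between titles, and a preset correlation for the CC17 pair. The number of arrays limits the precision. Promoter sequences came from RefSeq.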

Additional observations from a re-analysis of the deposited data

Results flagged for a closer look

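In 6 of the 80 groups of values (each tested gene in tumours and in muscle), 1 array lay far from the others by Dixon's criterion, which chance alone meets in about 1 in 20 groups. In the intercostal sample, muscle 2, Gnl3 was at 1308 against 2274 to 2398 in the other muscle samples, Mybbp1a at 1058 against 1781 to 1819, and Rrp1b at 195 against 369 to 402. Polr1c was at 996 in the forelimb sample, muscle 3, against 827 to 842 in the others. Noc4l was at 956 in tumour 3 against 355 to 446 in the other tumours. Nop14 was at 726 in tumour 1, the tumour with the highest Actb ratio, against 359 to 414.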

How the results depend on the processing

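Over 29 alternatives, 940 values of the 40 nucleolar genes kept their direction and their side of the threshold, 123 lost a call, 39 gained one and 54 changed sign. The number called higher was 6 as deposited, 4 with median centring, 5 after quantile normalization, 3 at the 75th percentile, 7 with the CC17 tumours averaged, 5 with the SSM tumours only, 6 with the Actb ratio as a covariate, and 6 to 12 without 1 array. Of all genes, 23.3%, 22.5%, 24.9%, 22%, 29%, 29.5% and 26.9% were called higher in that order. Without 1 array that share was 26% to 32.1%. The number called lower was 1 as deposited, 2 with median centring, 2 after quantile normalization, 4 at the 75th percentile, 1 with the filter on the mean, 2 with all probe sets averaged, 1 with only _at probe sets, 1 with the robust fit, 3 with array weights, 3 with the SSM tumours only, and 0 to 1 without 1 array. Of all genes, 18.7%, 20.8%, 20.3%, 23.8%, 18.1%, 18.3%, 17.5%, 17.9%, 21.8% and 21.3% were called lower in that order. Without 1 array that share was 14.4% to 18.7%. The members' median was 0.22 at the 75th percentile, 0.21 with array weights (that of all genes was 0.22) and 0.15 with the SSM tumours only (0.17), where 31 cell division genes were called higher. Among all genes, the share of calls that were higher was 62.6% as reported and 47.99% to 72.3% over the scalings.

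Sign changes in log2 fold change were as follows. At the 75th percentile Bop1 was -0.023, Ddx21 -0.0027, Gnl2 -0.23, Heatr1 -0.00056, Nip7 -0.13, Nop14 -0.028, Polr1a -0.068 and Wdr43 -0.096. After quantile normalization Bop1 was -0.00720, Gnl2 -0.064, Nop10 0.41, Nop14 -0.029 and Polr1a -0.072. With median centring Gnl2 was -0.17, Nip7 -0.060, Polr1a -0.0026 and Wdr43 -0.029, and as deposited Gnl2 was -0.10. Scaled to ribosomal protein and proteasome transcripts, Ddx56 was 0.17 and Gnl3 0.18. With all probe sets averaged Ddx27 was -0.024, Nip7 -0.15, Noc4l 0.087 and Nolc1 -0.027, and with only _at probe sets Gnl2 was -0.27, Mybbp1a -0.015 and Noc4l 0.25. With array weights Gnl2 was -0.52 and Wdr43 -0.047. With the CC17 tumours averaged Ddx56 was 0.0025 and Gnl2 -0.020. With a preset correlation of 0.5 for that pair Gnl2 was -0.038 and 9 members were called higher, against 27.5% of all genes. With the Actb ratio as a covariate Gnl2 was -0.65 and Nop14 -0.10, and without tumours 1 and 4 Gnl2 was -0.10. With the CC tumours only Gnl3 was 0.14. With the SSM tumours only Ddx18 was -0.15, Ddx56 0.041, Gnl2 -1.08, Mybbp1a -0.32, Nop2 -0.038, Nop58 -0.051, Polr1a -0.065 and Wdr43 -0.15. Without 1 array Ddx56 ran from -0.084 to 0.079, Gnl2 from -0.30 to 0.35 and Gnl3 from -0.23 to 0.063. The causes were not tested. A random block for the CC17 pair with an estimated correlation was not run, since a single block of 2 arrays gives no estimate. No paired analysis was possible because the labels give no replicate numbers shared between tumours and muscle. Signal over background limits the dim genes, such as Rrp9, Nle1 and Noc3l.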
